A study of Mus musculus with 6 samples.

Results

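The cytosolic ribosomal protein genes were followed across 6 mouse brain tumor libraries. Members were the rows of the count table whose symbol has the form of a cytosolic ribosomal protein (Rpl, Rps or Rplp with a number and at most a short letter ending, or Rpsa), and no measured value was used to choose them. The rule found 82 of 24537 rows, of which 50 belonged to the large subunit and 32 to the small subunit. The symbols of 6 members end in l and mark paralogs of a main gene: Rpl10l, Rpl32l, Rpl39l, Rpl3l, Rps27l and Rps4l. The libraries came from tumors made by electroporation in utero (an electric pulse carries DNA into cells of the embryonic brain) of CD-1 IGS mice. Per the sample titles, all 6 tumors received PdgfraD482V, a mutant of the platelet-derived growth factor receptor alpha, and DNp53, a dominant-negative p53. The 3 libraries titled FOXR2 also carried FOXR2, a forkhead transcription factor, and the 3 titled Control did not. The promoters that drive the constructs, the age of the animals and whether each library is a separate animal are not stated in the labels, so p-values measure only the spread between these libraries.

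The sample sheet inside the deposited table gives the opposite group for 6 of 6 libraries. Libraries are therefore called by their titles, and every direction below turns round if the sheet is right. Foxr2 itself had 22, 1 and 7 counts under the title FOXR2 and 4, 10 and 7 under the title Control, so it did not settle the groups, and a human FOXR2 construct need not be counted in this row. Totals ran from 13429489 to 17927025 counts. The oligodendrocyte precursor markers, a list of 7 genes that includes the electroporated Pdgfra, were present in all libraries, with a summed level of 5231 to 9320 CPM (counts divided by TMM-scaled library size).

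Ribosomes are built from ribosomal RNA and a large set of proteins, with a small subunit that reads the mRNA and a large subunit that joins amino acids. Most of the proteins are needed in equal numbers, and surplus copies are degraded. Their mRNAs start with a terminal oligopyrimidine tract, a C followed by further pyrimidines, through which mTOR and the RNA-binding protein LARP1 set their translation and stability together, and MYC proteins are known to raise transcription of the family in tumors.

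Ribosomal protein mRNA took a smaller part of the libraries titled FOXR2. The 82 members together held 7.90, 6.48 and 6.39% of all counts in replicates 1, 2 and 3 titled FOXR2, and 9.57, 12.52 and 12.04% in replicates 1, 2 and 3 titled Control. The groups did not overlap, and the means were 6.92% ± 0.85 (SD, n = 3) and 11.4% ± 1.58 (SD, n = 3). Control replicate 1 was the Control library nearest to the tumors titled FOXR2, and FOXR2 replicate 1 the FOXR2 library nearest to Control. In bulk RNA, fewer cells of a type and less RNA per cell cannot be told apart.

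The balance of the large and small subunits was alike in the 6 libraries. Large subunit members summed to 46563, 37190 and 36244 CPM under the title FOXR2 and to 54028, 74802 and 73613 CPM under the title Control. Small subunit members summed to 32768, 26552 and 26333 CPM and to 39001, 54102 and 51762 CPM in the same order. The ratio of large to small subunit counts was 1.42, 1.40 and 1.38 against 1.39, 1.38 and 1.42, and the groups overlapped. The mean ratio was 1.40 ± 0.022 (SD, n = 3) in both.

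**Figure D1:**
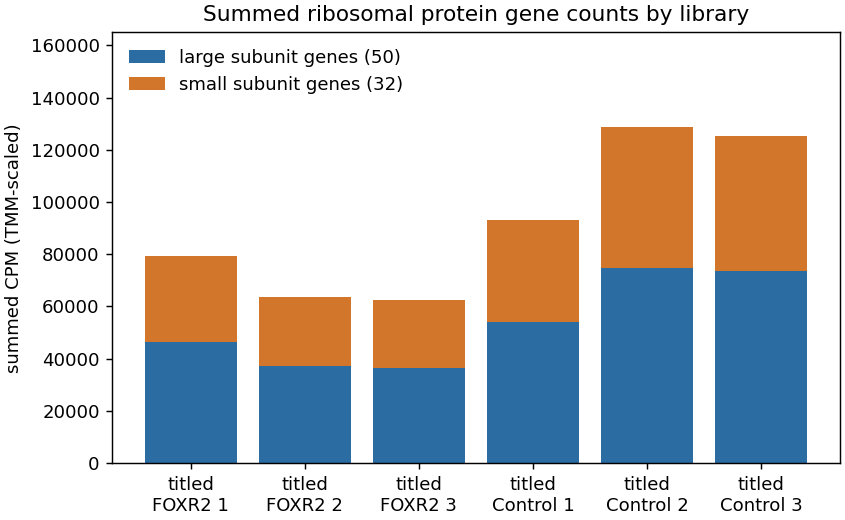
Summed CPM (TMM-scaled) of the 50 large subunit genes (blue) and the 32 small subunit genes (orange), stacked, in each of the 6 libraries. The stacks reach 62577 to 79331 CPM in the libraries titled FOXR2 and 93029 to 128903 CPM in those titled Control, and the blue part takes a like portion of each.

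Member by member, 74 of the 82 passed the filter on low counts. All 74 had a fitted log2 fold change below 0 (titled FOXR2 minus titled Control), where 49.3% of the 13101 tested genes did. The median was −0.75 over the tested members and 0.01 over all tested genes, the members ran from −1.31 to −0.17, and 12 were at least 2-fold lower. The median standard error was 0.22. For 57 of 74 members every library titled FOXR2 lay below every library titled Control, against 17.2% of all tested genes. The 17 whose groups overlapped were Rpl3, Rpl5, Rpl9, Rpl19, Rpl22, Rpl23, Rpl23a, Rpl27a, Rpl32, Rps7, Rps9, Rps12, Rps15a, Rps24, Rps27a, Rps29 and Rpsa.

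Fewer members passed the test. At a Benjamini-Hochberg adjusted p under 0.05 in edgeR's quasi-likelihood test, 7 of 74 were lower, against 1.38% of all tested genes, and 0 were higher, against 0.908%. At an unadjusted p under 0.05 in the same test, 61 of 74 were lower, against 13.0% of all tested genes, and 0 were higher. DESeq2 called 44 of 77 members lower, against 6.61% of the genes it tested, and 0 higher. The 7 calls lie close to the threshold, and each of the 6 fits that leave out 1 library made 0 calls among the members, as did the fit with animal sex as a covariate. These fits called few genes of any kind lower: 82 of 13303 without FOXR2 replicate 2, 1 of 13383 without Control replicate 3, and 0 in the other 4 fits without 1 library and in the fit with sex. The 0 among the members is thus near the rate of the whole table in these fits. At an unadjusted p under 0.05, the fits without 1 library held 41 to 66 members, against 16.7 to 24.6% of all tested genes in either direction. With all 6 libraries, the adjusted p in edgeR was under 0.05 for 4 of 43 tested large subunit members and 3 of 31 tested small subunit members.

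**Figure D2:**
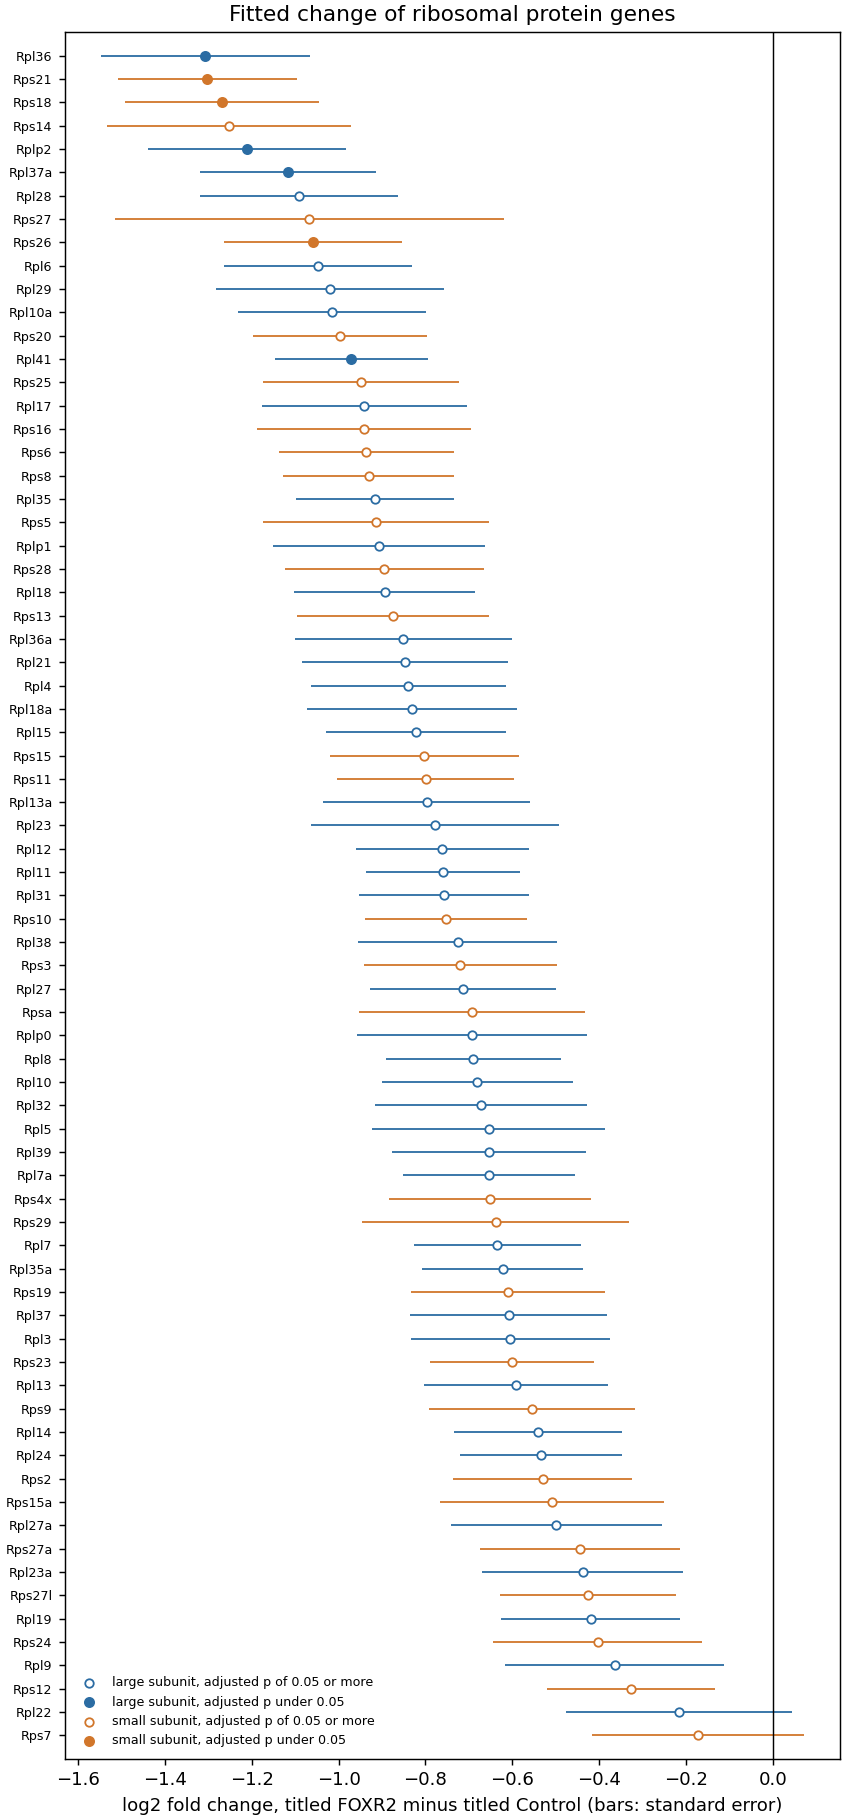
Fitted log2 fold change (titled FOXR2 minus titled Control) of 73 of the 74 tested members, ordered by value, with bars for 1 standard error to each side, coloured by subunit. Filled points are the 7 members with an adjusted p under 0.05, and all 73 points lie below 0, from −1.31 for Rpl36 to −0.17 for Rps7.

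The 7 called members were Rps21, Rps18 and Rps26 of the small subunit and Rpl36, Rpl37a, Rpl41 and Rplp2 of the large subunit. Rps21, a protein of the small subunit's body, was counted at 440 (FOXR2 replicate 1), 391 and 346 CPM under the title FOXR2 and at 778, 1023 and 1101 CPM under the title Control. The groups were far apart, with a log2 fold change of −1.30 ± 0.21 (SE) and an adjusted p of 0.0396 in edgeR, the lowest of the family. Rps18, a head protein near the interface of the subunits, was at 1034, 1016 and 1141 CPM against 1889, 3003 and 2795 CPM. Its 3 FOXR2 libraries were nearly level and Control replicate 1 stood between them and the others, with a log2 fold change of −1.27 ± 0.22 (SE) and an adjusted p of 0.0437 in edgeR. Rps26, which lies where the mRNA leaves the ribosome, was at 907, 778 and 838 CPM against 1382, 1836 and 2042 CPM. Its groups did not overlap, and the log2 fold change was −1.06 ± 0.20 (SE) with an adjusted p of 0.0489 in edgeR.

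Among large subunit members, Rpl36 had the lowest fold change of the family. It was at 308, 330 and 377 CPM under the title FOXR2 and at 612, 837 and 1065 CPM under the title Control, with no overlap (log2 fold change −1.31 ± 0.24 (SE), adjusted p = 0.0468 in edgeR). The Control libraries of Rpl36 spread by 0.80 on the log2 scale, the widest range among the 7. Rpl37a was at 528, 396 and 436 CPM against 829, 1009 and 1110 CPM, again without overlap (log2 fold change −1.12 ± 0.20 (SE), adjusted p = 0.0451 in edgeR). Rpl41, the smallest ribosomal protein, which bridges the subunits, was at 1358, 1233 and 1174 CPM against 2212, 2427 and 2737 CPM. Its libraries were the most even of the called genes, the widest range within a title being 0.31 on the log2 scale (log2 fold change −0.97 ± 0.18 (SE), adjusted p = 0.0451 in edgeR).

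The stalk of the large subunit, which recruits and stimulates translation factors, is made of Rplp0, Rplp1 and Rplp2. Rplp2 was at 568, 447 and 414 CPM against 887, 1341 and 1079 CPM and was called (log2 fold change −1.21 ± 0.23 (SE), adjusted p = 0.0486 in edgeR). Rplp1 was at 1770, 1466 and 1256 CPM against 2061, 3347 and 3015 CPM, and Rplp0 at 4190, 2860 and 2405 CPM against 4369, 6225 and 4689 CPM. For both genes the groups did not overlap, yet neither gene was called (log2 fold changes −0.91 and −0.69, adjusted p = 0.0866 and 0.166 in edgeR). Rplp0 had nearly the same level in FOXR2 replicate 1 as in Control replicate 1.

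Rpl5 and Rpl11 bind the 5S ribosomal RNA and, free of the ribosome, inhibit MDM2, the ubiquitin ligase that degrades p53. Rpl11 was at 813, 863 and 801 CPM against 1218, 1384 and 1594 CPM, without overlap. Rpl5 was at 1545, 1052 and 869 CPM against 1438, 2086 and 1934 CPM, and its FOXR2 replicate 1 lay above Control replicate 1. Neither was called (log2 fold changes −0.76 and −0.65, adjusted p = 0.0666 and 0.189 in edgeR).

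The other structural groups had like medians. The 14 tested members of the small subunit's head had a median log2 fold change of −0.78 with 1 called, the 16 of its body and platform −0.75 with 2 called, and the 7 at the rim of the exit tunnel, through which the new protein leaves, −0.73 with 0 called. All members of each group lay below 0, against 49.3% of all tested genes. Of all tested genes 1.38% were called lower. Across the 74 members the fold change had a Spearman rho of −0.03 with the mean level and 0.12 with transcript length, given as a description since members share libraries.

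The least changed members were Rps7 and Rpl22. Rps7, a small subunit protein that can also bind MDM2, was at 1214, 918 and 1557 CPM under the title FOXR2 and at 1145, 1551 and 1460 CPM under the title Control. Rpl22, whose protein also binds RNA outside the ribosome, was at 419, 368 and 590 CPM against 394, 602 and 602 CPM. In both genes FOXR2 replicate 3, the library with the lowest family share, was level with the upper Control libraries, and FOXR2 replicate 1 also lay above Control replicate 1, so the groups overlapped with or without replicate 3 (log2 fold changes −0.17 and −0.22, adjusted p = 0.703 and 0.647 in edgeR). On the log2 scale Rps7 stood 0.81 and Rpl22 0.82 above the median member of FOXR2 replicate 3.

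Rps12, a head protein, and Rpl9, near the base of the stalk, were the next least changed members. Rps12 was at 1211, 993 and 994 CPM against 1171, 1565 and 1273 CPM, and Rpl9 at 1336, 895 and 783 CPM against 1067, 1358 and 1455 CPM. In both, FOXR2 replicate 1 lay above Control replicate 1 and FOXR2 replicate 3 below it (log2 fold changes −0.33 and −0.36, adjusted p = 0.339 and 0.412 in edgeR). The same held for Rps27a, made as a fusion with ubiquitin, at 1122, 1005 and 735 CPM against 1049.8 CPM in Control replicate 1 and 1365 and 1477 CPM in the others (log2 fold change −0.44, adjusted p = 0.279 in edgeR).

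The most abundant members lay inside the range of the family. Rpsa, which also serves as a laminin receptor, was at 4067, 2577 and 2595 CPM against 3918, 5833 and 5184 CPM, with FOXR2 replicate 1 above Control replicate 1. Rps4x, the X-linked small subunit gene, was at 1947, 1285 and 1547 CPM against 1993, 2821 and 2694 CPM, and Rpl4 at 1811, 1344 and 1435 CPM against 2117, 3043 and 3055 CPM. Rpl3 and Rpl8, which lie near the peptidyl transferase centre, were at 1969, 1377 and 1472 CPM against 1920, 2708 and 2698 CPM, and at 1667, 1252 and 1563 CPM against 2019, 2569 and 2641 CPM. The groups overlapped for Rpsa and Rpl3 and not for Rps4x, Rpl4 and Rpl8, and none of these 5 was called (log2 fold changes −0.84 to −0.60, adjusted p = 0.0849 to 0.164 in edgeR).

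Libraries of the same title spread widely for Rps29, Rpl29 and Rpl23. Rps29, a zinc-binding head protein, was at 709, 449 and 346 CPM against 597, 807 and 939 CPM, a range of 1.04 on the log2 scale within the title FOXR2. Rpl23 was at 1741, 1182 and 948 CPM against 1659, 2569 and 2409 CPM, and in both genes FOXR2 replicate 1 was the highest and FOXR2 replicate 3 the lowest library of its title. For Rpl29 the spread lay in the Control libraries, with 505, 373 and 408 CPM against 606, 881 and 1119 CPM.

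FOXR2 replicate 3 held most of the large departures. Departure here means a member's log2 level relative to its own mean over the 6 libraries, minus the median of that quantity over the 74 members in the library. Departures over 0.5 in size numbered 5 in FOXR2 replicate 3, 1 in FOXR2 replicate 1, 1 in Control replicate 3 and 0 in each of the others. In FOXR2 replicate 3, Rps2, at the entry of the mRNA channel, was 0.59 and Rpl32 0.56 above the median, and Rps14, a platform protein, 0.50 below it. Rps14 was at 1177, 1046 and 720 CPM against 1678, 2906 and 2425 CPM, so its groups did not overlap (log2 fold change −1.25, adjusted p = 0.0615 in edgeR). Rpl36 was 0.60 below the median in FOXR2 replicate 1 and 0.52 above it in Control replicate 3.

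Rpl22l1, the paralog of Rpl22, lies outside the symbol rule, and the Rpl22 protein is known to repress it. Rpl22l1 was at 72.4, 59.6 and 24.4 CPM under the title FOXR2 and at 114, 124 and 112 CPM under the title Control. Rpl22l1 was lowest in FOXR2 replicate 3, the library in which Rpl22 stood highest relative to the median member. In CPM, Rpl22 was at 590 there and at 602 in both Control replicates 2 and 3, where Rpl22l1 was at 124 and 112. A link between Rpl22 and Rpl22l1 was not tested. The log2 fold change of Rpl22l1 was −1.16 ± 0.37 (SE) with an adjusted p of 0.119 in edgeR.

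**Figure D3:**
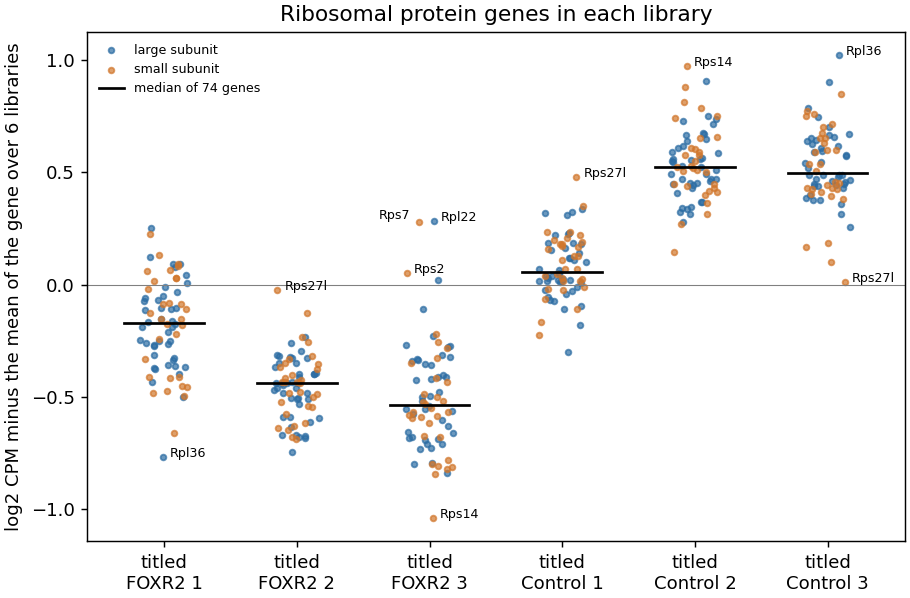
Level of each of the 74 tested members in each library, as log2 CPM minus the gene's own mean over the 6 libraries; points are genes coloured by subunit and the lines are medians. Rps7 and Rpl22 stand apart above the other members in FOXR2 replicate 3, and the median of Control replicate 1 lies below those of the other libraries titled Control.

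The libraries of each title were not level. Leaving out each in turn moved the members' median log2 fold change between −0.91 and −0.64. Control replicate 1 was the lowest library titled Control for 72 of 74 members, and FOXR2 replicate 1 the highest titled FOXR2 for 53. The lowest of all 6 libraries was FOXR2 replicate 3 for 43 members, FOXR2 replicate 2 for 27 and FOXR2 replicate 1 for 4. The highest was Control replicate 2 for 37, Control replicate 3 for 35 and Control replicate 1 and FOXR2 replicate 3 for 1 each. By Xist and Y-linked genes, FOXR2 replicates 1 and 3 and Control replicate 1 came from males and the rest from females. Among males, with 2 libraries against 1, the median log2 difference over the members was −0.43 and 70 of 74 lay below 0. Among females, with 1 against 2, it was −0.98 and 74 of 74 lay below 0.

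Marker genes of other cells also differed between libraries. The 8 microglia markers summed to 973 CPM in FOXR2 replicate 2 and to 1.61 to 4.80 CPM elsewhere, and the 5 mature oligodendrocyte markers ran from 32.3 to 3598 CPM among the libraries titled FOXR2 and from 67.7 to 1980 CPM among those titled Control. The 5 neuron markers summed to 390 to 419 CPM against 60.4 to 119 CPM and the 7 oligodendrocyte precursor markers to 6486 to 9320 CPM against 5231 to 5811 CPM, so both lists were higher in all libraries titled FOXR2. The 5 astrocyte markers summed to 393 to 570 CPM against 226 to 394 CPM, the 4 proliferation genes to 806 to 1246 CPM against 540 to 990 CPM, and the 4 globin genes of red cells were at 0 in all 6. The part of these lists in the ribosomal protein difference was not tested. Without FOXR2 replicate 2, the library with the microglia markers, the members' median was −0.74.

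The paralogs ending in l were nearly silent apart from Rps27l. Rpl3l, the form of Rpl3 used in heart and skeletal muscle, was at 0 counts in all 6 libraries. Rpl10l, which replaces Rpl10 in the testis, had 1 count in Control replicate 2 and 0 elsewhere. Rpl39l had 1, 4 and 0 counts in FOXR2 replicates 1 to 3 and 0, 1 and 0 in Control replicates 1 to 3. Rpl32l had 2, 0 and 4 counts against 7, 3 and 12. Their main genes were abundant: Rpl10 was at 1054, 817 and 782 CPM against 1121, 1636 and 1494 CPM, Rpl39 at 727, 581 and 596 CPM against 747, 1158 and 1089 CPM, and Rpl32 at 572, 468 and 753 CPM against 748, 1044 and 1064 CPM. Rps4l had 28 counts in FOXR2 replicate 2 and 0 in the other 5 libraries. With 3 counts as the floor, these genes reached at most 1.77 CPM (Rps4l), and a floor of 3 counts corresponded to 0.174 to 0.219 CPM.

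Rps27l, a target gene of p53 and a partner of the MDM2 pathway, was at 149.8, 166 and 125 CPM under the title FOXR2 and at 236, 187 and 170.4 CPM under the title Control. The groups did not overlap but came close, and the gene was not called (log2 fold change −0.43 ± 0.20 (SE), adjusted p = 0.243 in edgeR). Relative to the other members it was high in FOXR2 replicate 2 and Control replicate 1 (departures 0.41 and 0.42) and low in Control replicates 2 and 3 (−0.38 and −0.49). Its log2 ratio to Rps27 was 6.81, 7.41 and 6.99 against 7.21, 6.14 and 6.04, a mean difference of 0.60 (exact two-sided permutation p = 0.3, Benjamini-Hochberg p = 0.5 over 5 pairs). The smallest p that 3 against 3 allows is 0.1, and the counts of Rps27 in that ratio are those of a row with few reads.

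Rps27 and 3 other main genes were counted far below the rest of the family. Rps27 had 20, 15 and 13 counts in FOXR2 replicates 1 to 3 and 26, 44 and 44 in Control replicates 1 to 3. Rpl30 had 0, 4 and 5 counts against 18, 16 and 8, and Rpl34 had 4, 6 and 3 against 10, 15 and 6. Rpl26 was at 0 in all 6 libraries. The other 72 main genes all had a mean of at least 100 CPM. Rps27, Rpl26, Rpl30 and Rpl34 all encode known proteins of the ribosome. Rpl26, Rpl30, Rpl34 and the paralogs other than Rps27l are the 8 members that failed the filter.

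These 4 genes had a property in common in the GENCODE mouse transcripts. Of the 51-base stretches of Rps27, the length of the reads, 98.6% also occur in another row of the table, most of them in Rps27rt, which had 0 counts. The share was 60.1% for Rpl26, 50.2% for Rpl34 and 47.5% for Rpl30, and the rows sharing most with them (Gm15772, Rpl34-ps1 and Gm12191) also had 0 counts. Among the other 72 main genes, 54 shared no stretch with another row of the table. The remaining 18 shared at most 49.0%, the value of Rpl14 with Rpl14-ps1, and the row sharing most with each had counts in all 18 cases. Measured against any transcript, in the table or not, 15 of these 72 abundant genes shared over 80%, among them Rpl9 at 93.3% and Rpl10 at 92.1%. How reads that map to several places were handled is not given in the sources used. Its part in the low counts of the 4 genes was not tested. The levels of these 4 genes are for that reason not read as expression. Rps27 passed the filter and is included in the counts over 74 members; without it 73 of 73 lay below 0, 11 were at least 2-fold lower and 56 had groups that did not overlap. Members with under 50% of their stretches shared with any transcript numbered 36 among those tested, a subset chosen after seeing the data, and gave a median of −0.77 on the log2 scale and 4 calls.

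**Figure D4:**
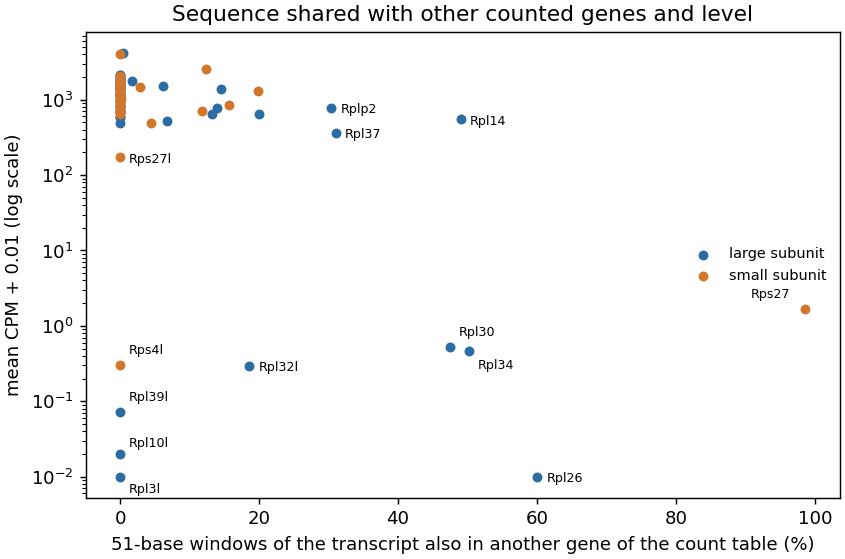
Mean CPM plus 0.01 of each member over the 6 libraries (log axis) against the percent of its 51-base stretches that also occur in another gene of the count table, coloured by subunit. Rps27, Rpl26, Rpl34 and Rpl30 combine a low level with 47.5 to 98.6% shared stretches, the other main genes lie high at 49.0% or below, and the points at low level on the left are paralogs ending in l.

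Levels between members were compared per kilobase of transcript, in CPM per kb averaged over the 6 libraries. Rplp1 was at 4314 and Rpl41 at 4249 CPM per kb, and these were the highest pair under either title. The order below them depended on the title: Rps18 was at 1900 CPM per kb under the title FOXR2, below Rplp0 at 2321, Rpl23a at 2119, Rps2 at 2106 and Rps24 at 2023, and at 4575 CPM per kb under the title Control, above Rps14 at 3914 and Rplp0 at 3751. Rpl22 at 242 and Rps27l at 346 CPM per kb were the lowest of the abundant members, and were so under either title. Rps15a and Rps20 were left out of this order because their annotated models are far longer than the usual mRNA. Other long models were kept, among them Rpl22 at 2051, Rpl5 at 2045, Rpsa at 1938, Rpl15 at 1922 and Rps3 at 1908 bases. The order therefore depends on the annotated lengths.

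Lists of other genes, mostly of the translation machinery, had medians below 0, and the differences from the members' median were not tested. Of the 8 tested ribosomal proteins with names outside the rule, all 8 had a negative fold change (median −0.63 on the log2 scale) and 0 passed the test. These include Rpl37rt, a row with 20 to 46 counts per library and 66.8% of its 51-base stretches shared with another row of the table. Among the 8, Rack1, a scaffold on the small subunit's head, was at 1685, 1088 and 884 CPM against 1912, 2958 and 2181 CPM. Its groups did not overlap. A further list held 22 genes, not all of them of translation, whose RNAs are known or held to carry the oligopyrimidine start. Of these, 20 lay below 0 with a median of −0.47, and 0 were called. The 78 tested mitochondrial ribosomal proteins, which build a separate ribosome, had a median of −0.34, with 65 below 0 and 6 called lower. Over all tested genes 49.3% lay below 0 and 1.38% were called lower, so 0 calls in the lists of 8 and 22 genes are near that share.

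Of the 11 genes listed as chaperones and importers of ribosomal proteins, 10 lay below 0, the median was −0.22 and 2 were called lower. Over all tested genes 49.3% lay below 0 and 1.38% were called lower. Grwd1, the chaperone of Rpl3, was at 31.9, 40.2 and 26.6 CPM against 79.4, 77.6 and 63.7 CPM (log2 fold change −1.16, adjusted p = 0.0462 in edgeR). Pdcd2, which escorts Rps2, was at 17.7, 24.6 and 22.1 CPM against 43.9, 64.8 and 53.8 CPM (log2 fold change −1.33, adjusted p = 0.0437 in edgeR). Both fell without overlap, while their client genes Rpl3 and Rps2 had log2 fold changes of −0.60 and −0.53 and were not called.

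The 11 regulators, among them mTOR, LARP1 and MYC family genes, had a median of −0.01 and 0 were called. That is near the share of all tested genes, of which 1.38% were called lower and 0.908% higher. Mycn was at 4.83, 3.61 and 15.9 CPM under the title FOXR2 and at 0.660, 1.61 and 0.697 CPM under the title Control, and Myc at 84.7, 97.4 and 137 CPM against 66.3, 63.8 and 60.9 CPM. Both were higher in all libraries titled FOXR2, as were 13.1% of all tested genes, a direction opposite to the ribosomal protein genes. Neither was called (log2 fold changes 3.03 and 0.74, adjusted p = 0.0688 and 0.102 in edgeR). For Mycn, FOXR2 replicate 3 stood far above the others, and it was also the library with the lowest ribosomal protein share. A link between Myc or Mycn and the ribosomal protein genes was not tested.

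Transcript length also ran with the fold change over all genes. Tested genes outside the family had a median log2 fold change of −0.14 for transcripts under 1000 bases, −0.08 for 1000 to 3000 bases and 0.13 for 3000 bases or more. Of the 74 tested members, 51 belong to the short class. With an offset for length and GC content in each library, the members' median was −0.62, and 3 were called in edgeR, where 1.68% of all tested genes were called lower. RNA quality was not tested.

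Promoters of the members were read from RefSeq (GRCm38.p6, 250 bases before to 50 after each gene's start), where 61 of the 82 symbols matched. The series title names circuits of ETS transcription factors, and the word searched for them was CCGGAAG, which reads CTTCCGG on the opposite strand. It is a strict form of an ETS site, so a promoter without it can hold other forms. This word occurred in 25 of 61 member promoters, 41.0%, against 9.93% of all 27025 gene promoters and 19.5% of the 10093 whose gene was tested. The promoters of 4 of the 7 called members and of both least changed genes are shown from 100 bases before to 20 after the first listed start, 5′ to 3′, with the ETS word in capitals, since they show called and little changed members both with and without the word.
Rps21 chr2:180257279-180257398 (plus strand): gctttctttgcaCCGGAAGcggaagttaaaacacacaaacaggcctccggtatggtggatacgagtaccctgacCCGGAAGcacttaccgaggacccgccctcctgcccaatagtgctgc
Rps18 chr17:33955646-33955765 (minus strand): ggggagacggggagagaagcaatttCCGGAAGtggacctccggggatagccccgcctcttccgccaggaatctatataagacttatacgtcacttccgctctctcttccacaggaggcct
Rpl41 chr10:128549149-128549268 (minus strand): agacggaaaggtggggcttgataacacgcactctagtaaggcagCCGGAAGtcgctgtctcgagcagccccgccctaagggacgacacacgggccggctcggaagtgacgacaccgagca
Rps7 chr12:28635934-28636053 (minus strand): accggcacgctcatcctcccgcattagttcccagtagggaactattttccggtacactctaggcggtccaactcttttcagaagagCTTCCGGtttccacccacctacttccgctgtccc
Rpl37a chr1:72711160-72711279 (plus strand): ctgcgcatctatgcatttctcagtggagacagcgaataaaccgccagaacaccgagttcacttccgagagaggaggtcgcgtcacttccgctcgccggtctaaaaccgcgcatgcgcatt
Rpl22 chr4:152324336-152324455 (plus strand): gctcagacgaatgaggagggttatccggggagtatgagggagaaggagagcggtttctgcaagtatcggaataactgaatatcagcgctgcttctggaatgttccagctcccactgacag

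Rps21 holds the word at 88 and 26 bases before the first listed start, and at 158 and 96 bases before its other listed start. Rps18 holds the word at 75 bases before the start and again at 157 bases, outside the stretch shown, and Rpl41 at 56 bases. The called genes Rplp2 and Rps26 hold it at 108 and 214 bases before the start, outside such a stretch, and are not shown. Rpl37a, called, and Rpl22, not called, hold none, though the stretch of Rpl37a holds the shorter cttccg. Rps7, the least changed member, holds the word at 14 bases before the start. Rpl36, also called, had no matched promoter. The 22 tested members with the word had a median log2 fold change of −0.76 and 5 calls, and the 33 without it −0.69 and 1 call. Of all tested genes 1.38% were called lower. Over all tested genes the medians were −0.32 with the word and 0.08 without. The lower median with the word was thus not particular to the members, and a link of the word to the calls was not tested. A word match is not a binding site, and its absence says only that these letters are not in the window.

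A C followed by at least 7 pyrimidines within 20 bases of the annotated start, the form of the oligopyrimidine tract, occurred in 49.2% of the matched members, against 14.5% of all genes and 16.3% of those tested. Tested members with it had a median log2 fold change of −0.74 (28 genes, 3 calls) and those without it −0.72 (27 genes, 3 calls). The word AAGATGGC (GCCATCTT on the other strand), a form of the YY1 site, occurred in 8.20% of the members, against 3.19% of all genes and 5.21% of those tested. Of the tested members, the 5 with it had a median of −0.62 and 0 calls, and the 50 without it −0.74 and 6 calls. Of all tested genes 1.38% were called lower, so 0 calls among 5 genes is near that share.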

How the data were processed

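The 6 libraries were poly(A)-selected RNA-seq of tumors, made with a strand-keeping kit and sequenced from 1 end for 51 bases, per the labels' protocols. The authors deposited raw counts of reads per gene symbol. Per the submitters' processing notes, which give no versions, TopHat, DESeq2 and the human build hg19 were used, yet the symbols are those of mouse. The counting tool, annotation, use of strand and handling of multi-mapping reads are not stated in the labels or headers. Ribosomal protein genes have many near-identical copies, which makes their counts uncertain. The members and lists were chosen with earlier results of these data known. The shared-stretch measure, its subset under 50% and the promoter words were chosen after seeing the data, and several longer or looser forms of the words were viewed before these 3 were kept.

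The model was edgeR 4.0.16 under R 4.3.3 (filterByExpr with a count minimum of 10, TMM factors 0.961 to 1.03, quasi-likelihood F test of titled FOXR2 against titled Control, no covariate). Benjamini-Hochberg adjusted p-values cover all 13101 tested genes, and those under 0.05 were called. CPM are TMM-scaled, and a floor of 3 counts covers counting error only. Date-like rows (23) were never named. The named members were the called ones, the extremes of fold change, the most abundant, the paralogs and their main genes, Rpsa and Rps27a, the 5S and stalk proteins, those widest within a title and those that failed the filter; other members named were chosen after their values were seen. Transcript lengths were the lower median of GENCODE vM21 coding transcripts with a RefSeq match, a rule settled by looking at lengths alone. Alternatives were RLE and total-count scaling, TMM without the members, no filter, DESeq2 1.42.0, limma-voom (limma 3.58.1), a replicate block, animal sex, a length and GC offset (mgcv 1.9.3), each library left out, and a pseudocount of 1 in place of 0.5 for the paralog ratios. The fitting was tested on simulated data. Some items that the naming rule gives are not reported here.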

Additional observations from a re-analysis of the deposited data

How the results depend on the processing

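The 7 members called lower with edgeR (181 over all tested genes) became 3 with no filter on low counts (128), 3 with the length and GC offset (220), 0 with animal sex as a covariate (0), and 44 with DESeq2 (930). Of the 7, 4 are among the 36 tested members with under 50% of their stretches shared, a smaller set by construction. With a replicate block the count was 0, as over all genes. In that fit 46 members had an unadjusted p under 0.05 in edgeR, against 20.2% of all tested genes in either direction. Nothing in the labels says that the replicate numbers pair the libraries. After each title's mean log CPM was subtracted per gene, same-numbered libraries had correlations of 0.002, −0.215 and −0.004 over 13101 genes. With 3 libraries per title these values cannot decide whether the libraries pair. Leaving out each library in turn gave 0 to 0 calls, and 0 to 82 lower calls over all genes; the cause was not tested. The count stayed within 1.5 times of 7 with RLE factors (5), total-count scaling (7), TMM without the members (7) and limma-voom (6). Across these settings 0 members were called higher and the members' median log2 fold change ran from −0.91 to −0.62, against a median of all genes that reached 0.10 with no filter and 0.13 with DESeq2. The Rps27l to Rps27 ratio kept its direction. These settings do not address the Rps27 row itself, whose level is not read as expression. For the other pairs the paralog has so few counts that the pseudocount and the main gene set the ratio. Depth limits the genes with few counts, Rps27, Rpl30, Rpl34 and the paralogs other than Rps27l among them.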
